A study of Mus musculus with 36 samples.

Results

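The miR-199 and miR-214 family is described here in mouse prostate, as the 5 table entries mmu-miR-199a-5p, mmu-miR-199b-5p, mmu-miR-199ab-3p_merged, mmu-miR-214-3p and mmu-miR-214-5p, out of 1963 miRNAs listed and 1574 with at least 1 read. The entries were picked by name and not by their levels, though with earlier results of these data known. They are written without prefix below. miR-199ab-3p stands for the merged entry, the sum of miR-199a-3p and miR-199b-3p, which have the same sequence. All 5 passed the filter on low values, as did 298 miRNAs in all. Levels were given as CPM, the reads of a miRNA divided by all miRNA reads of its library and multiplied by 1000000.

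The study crossed 3 Elac2 lines of male mice with a transgenic model of prostate cancer and sequenced the small RNAs of the ventral and lateral lobes at 10 and 30 weeks of age. WT mice carried normal Elac2. In KO mice the gene was deleted in the prostate only, by a Cre recombinase under the probasin promoter. A537T mice were homozygous in the whole body for the threonine variant. ELAC2 is the ribonuclease that trims the 3′ ends of precursor tRNAs. Mice of the groups named with TRAMP (WT-TRAMP, KO-TRAMP, A537T-TRAMP) carried in addition 1 copy of the TRAMP transgene, in which the probasin promoter drives the SV40 T antigens in prostatic epithelium. The strain of all mice was given as C56NL/6N, and mutants and controls were littermate-matched. The 12 groups held 3 libraries each, 36 in all. The libraries were bulk RNA, so both genetic changes of the KO and TRAMP models act in epithelial cells while the RNA of all cells of the lobes was measured.

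MicroRNAs are short RNAs that pair through their seed, bases 2 to 8, with messenger RNAs and lower their output. A hairpin precursor can release a mature miRNA from its 5′ arm and another from its 3′ arm. The miR-199 and miR-214 hairpins are expressed mainly in mesenchymal cells such as fibroblasts, and in many organs they are known for their link to connective tissue, skeletal development and fibrosis. Known targets include caveolin-1 for miR-199a-5p, mTOR and MET for miR-199a-3p, and EZH2 for miR-214-3p. The assignment to fibroblasts comes from this background, since the tables hold no measurement of cell types.

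The mature sequences below show the seeds, in capitals, through which these members pair with targets. They come from a RefSeq table for GRCm38.p6 in which 4 of the 5 members were matched by name, and miR-199b-5p was not. miR-199a-5p and miR-199b-5p are known to belong to the same seed family.
miR-199a-5p: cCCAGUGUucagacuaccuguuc
miR-199ab-3p: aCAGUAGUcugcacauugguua
miR-214-3p: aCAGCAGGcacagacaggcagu
miR-214-5p: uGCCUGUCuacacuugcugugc

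The 4 sequences had 4 distinct seeds. The closest pair was miR-199ab-3p and miR-214-3p, whose seeds differed at 2 of 7 positions, and miR-214-3p and miR-214-5p, the arms of 1 hairpin, differed at 7 of 7. In the same table miR-761 shares the seed of miR-214-3p, and it was at 0 in every library.

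The 2 hairpins below are shown because they stand on 1 transcript, with both mature arms in capitals.
Mir199a-2: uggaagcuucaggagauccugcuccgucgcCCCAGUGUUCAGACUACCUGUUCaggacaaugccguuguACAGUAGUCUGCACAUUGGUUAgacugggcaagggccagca
Mir214: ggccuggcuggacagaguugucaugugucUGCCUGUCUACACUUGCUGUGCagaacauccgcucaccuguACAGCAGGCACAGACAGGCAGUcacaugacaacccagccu

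On GRCm38, Mir199a-2 lies at chr1:162217814-162217923 and Mir214 at chr1:162223368-162223477, both on the plus strand, with 5444 bases between them. Both stand in an exon of Dnm3os, a long noncoding RNA that is their host transcript, and opposite an intron of Dnm3 on the minus strand. Mir199a-1 lies at chr9:21496495-21496564 on the minus strand, opposite an intron of Dnm2, and Mir199b at chr2:32318460-32318569 on the plus strand, opposite an intron of Dnm1. miR-199a-5p is encoded by both Mir199a genes and miR-199ab-3p by all 3 miR-199 genes, so reads of these members cannot be assigned to 1 locus. miR-214-3p and miR-214-5p come from Mir214 alone.

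The region around the Dnm3os start site (chr1:162217373-162217672, plus strand, GRCm38.p6, 250 bases before to 50 after the start) is shown because it precedes both hairpins of chromosome 1, with 2 kinds of motif in capitals.
Dnm3os promoter: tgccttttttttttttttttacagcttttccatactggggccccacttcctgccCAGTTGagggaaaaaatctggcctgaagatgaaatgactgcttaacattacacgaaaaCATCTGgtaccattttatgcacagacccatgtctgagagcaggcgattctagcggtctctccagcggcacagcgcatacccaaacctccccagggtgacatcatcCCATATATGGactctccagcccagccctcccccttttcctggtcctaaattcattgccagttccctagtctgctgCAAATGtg

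It holds 1 CArG box, the motif bound by serum response factor, and 3 E-boxes of the form CANNTG, the motif bound by factors such as Twist1. The CArG box starts at position -33 and the E-boxes at -196, -138 and 43 from the start site. Both motifs were searched on both strands and do not overlap here. Of 32851 promoter windows of this length, 1.63% hold a CArG box and 72.3% an E-box. These matches describe letters in the window, and no binding was measured.

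Library totals ran from 655455 miRNA reads in library 35, of the A537T group at 10 weeks, to 21870210, and the next lowest total was 4544257. At 10 weeks the TRAMP libraries had 4544257 to 13014486 reads, and those without TRAMP, apart from library 35, had 12422946 to 18574473. Library numbers ran in blocks, 1 to 9 for TRAMP and 28 to 36 for no TRAMP at 10 weeks. At 30 weeks they were 10 to 18 and 19 to 27. An effect of such a block cannot be told apart from TRAMP and age, and the part of depth was not tested. Library 30, a WT library at 10 weeks, had 30.7% of its reads in 7 miRNAs of skeletal muscle, the largest share of any library. The lowest read count of a member in any library was 66, for miR-214-5p. Differences below are log2 differences of CPM + 1, with the standard error (SE), from 1 limma fit over all 12 groups. P-values were adjusted by Benjamini-Hochberg over the 298 miRNAs of a comparison, and a miRNA was called at an adjusted p under 0.05. The p-values measure the spread between the 3 libraries within a group, pooled over all 12 groups of the fit. The labels do not tie these libraries to named animals.

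The members covered a wide range of abundance. miR-199ab-3p was the most abundant, at 3200.3 to 9687 CPM over 36 libraries and rank 17 to 33 among miRNAs. miR-199a-5p followed at 952 to 2839 CPM, and miR-199b-5p at 90.6 to 772 CPM. The arms of miR-214 were far lower, at 62.6 to 198 CPM for miR-214-3p and 38.6 to 125 CPM for miR-214-5p. Each read stands for 1 mature miRNA of near-equal length, so these levels are per molecule, apart from differences in ligation. The 5 members together held between 0.434% and 1.33% of the miRNA reads. miR-199b-5p varied most, with an 8.53-fold range between its lowest and highest library against 2.98-fold to 3.23-fold for the other 4. Library 7, of the KO-TRAMP group at 10 weeks, had the lowest level of all 5.

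**Figure D1:**
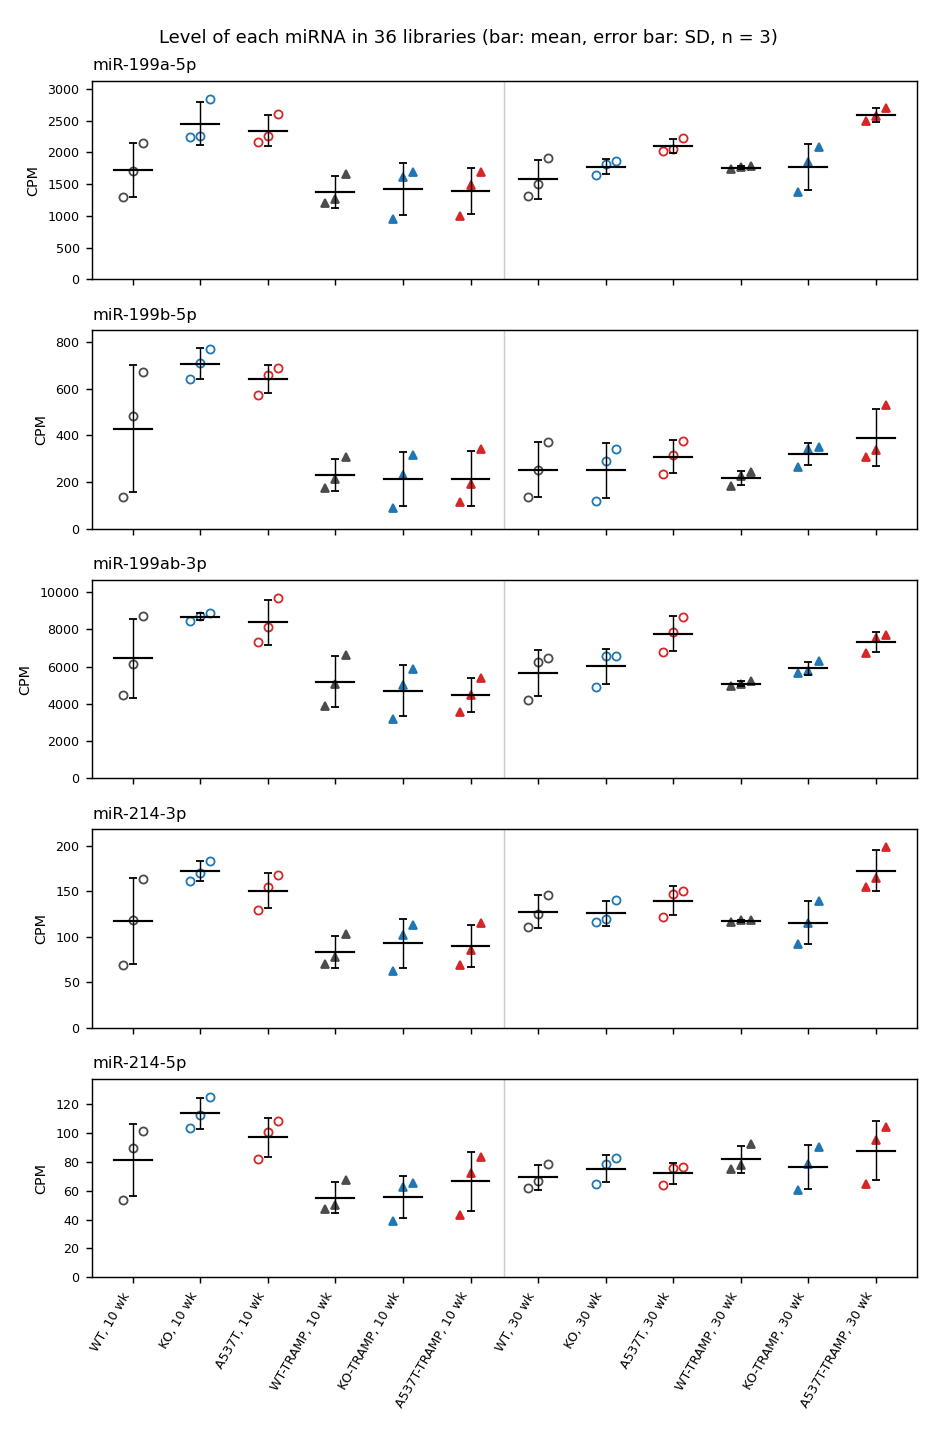
CPM of each member (1 panel each, linear axis from 0) in the 36 libraries, by group, with points for libraries, bars for group means and error bars for the SD. The TRAMP groups at 10 weeks sit low in every panel, and miR-199b-5p is highest in the 10-week groups without TRAMP, where it reaches 772 CPM.

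By group mean, KO mice at 10 weeks stood first for miR-199ab-3p (8692 ± 203 CPM, SD, n = 3), miR-199b-5p and miR-214-5p. A537T-TRAMP mice at 30 weeks stood first for miR-199a-5p (2592 ± 107 CPM) and miR-214-3p (172 ± 22.6 CPM). The last place went to a TRAMP group at 10 weeks for every member: WT-TRAMP for miR-199a-5p, miR-214-3p and miR-214-5p, KO-TRAMP for miR-199b-5p and A537T-TRAMP for miR-199ab-3p. Neighbouring groups in this order overlapped in 11 of 11 pairs for 4 members and in 10 of 11 for miR-199a-5p, where A537T and KO mice at 30 weeks did not overlap. The order is therefore a description.

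At 10 weeks all 5 members were lower in TRAMP prostates than in prostates without the transgene, averaged over the 3 lines, against 41.9% of all miRNAs tested that were called lower. miR-199b-5p fell most, to 0.374 of its level, and the other 4 fell to between 0.608 and 0.642. The median difference of the members was -0.71, and that of all 298 miRNAs was -0.23. In bulk tissue, fewer cells of a type and less RNA per cell cannot be told apart.

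miR-199a-5p, the 5′ arm of both miR-199a hairpins, had 1305, 1714 and 2155 CPM in WT and 1205, 1267 and 1656 CPM in WT-TRAMP. Its levels were 2249, 2260.4 and 2839 CPM in KO and 952, 1615 and 1693 CPM in KO-TRAMP. They were 2157, 2264 and 2611 CPM in A537T and 992, 1488 and 1698 CPM in A537T-TRAMP. In the KO and A537T lines every TRAMP library lay below every library without TRAMP, while the WT groups overlapped through library 30, the lowest WT library. Over the 3 lines the level was lower by a difference of -0.64 (SE 0.12, adjusted p = 6.28e-05).

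miR-199b-5p, the 5′ arm of Mir199b, had 135, 481 and 672 CPM in WT and 173, 212 and 307 CPM in WT-TRAMP. In KO it had 640.3, 709 and 772 CPM and in KO-TRAMP 90.6, 231 and 318 CPM. In A537T it had 572, 661 and 690.2 CPM and in A537T-TRAMP 113, 190.3 and 343 CPM. The WT library at 135 CPM was again library 30, and it lay below all 3 WT-TRAMP libraries. The difference over the lines was -1.42 (SE 0.28, adjusted p = 8.94e-05), the largest of the 5.

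miR-199ab-3p, the 3′ arm shared by all 3 miR-199 hairpins, had 4493, 6122 and 8695 CPM in WT and 3872, 5073 and 6627 CPM in WT-TRAMP. KO libraries held 8475, 8725 and 8876 CPM and KO-TRAMP libraries 3200.3, 5031 and 5871 CPM. A537T libraries held 7309, 8142 and 9687 CPM and A537T-TRAMP libraries 3559, 4456 and 5406 CPM. KO libraries lay close together, and the gap to the highest KO-TRAMP library was wide. Over the lines it differed by -0.71 (SE 0.13, adjusted p = 3.48e-05).

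miR-214-3p, the more abundant arm of Mir214, had 69.2, 119 and 163 CPM in WT and 69.8, 77.7 and 103 CPM in WT-TRAMP. In the KO line it had 162, 170.3 and 183 CPM without and 62.6, 102 and 113 CPM with TRAMP. In the A537T line it had 129.5, 154 and 168 CPM without and 69.1, 84.9 and 115 CPM with TRAMP. The KO and A537T groups were again separated and the WT groups were not. The difference over the lines was -0.70 (SE 0.14, adjusted p = 9.38e-05).

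miR-214-5p, the other arm, had 53.5, 89.9 and 101 CPM in WT and 47.5, 50.3 and 67.6 CPM in WT-TRAMP. It had 103, 112 and 125 CPM in KO and 38.6, 62.5 and 65.3 CPM in KO-TRAMP. It had 81.8, 101 and 108 CPM in A537T and 43.5, 72.4 and 83.5 CPM in A537T-TRAMP, where 1 TRAMP library passed the lowest library without TRAMP. Averaged over lines it stood at -0.72 (SE 0.14, adjusted p = 8.94e-05).

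Over the 18 libraries of 10 weeks no member separated the TRAMP libraries from the rest, against 6.71% of all miRNAs, and library 30 was among the low ones without TRAMP. With library 30 left out, which was decided after its values were seen, all 9 TRAMP libraries lay below the other 8 for miR-199a-5p, miR-199b-5p and miR-214-3p, as for 13.4% of all miRNAs tested. Leaving out any 1 library, or libraries 7, 30 and 35 together, kept all 5 members called.

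**Figure D2:**
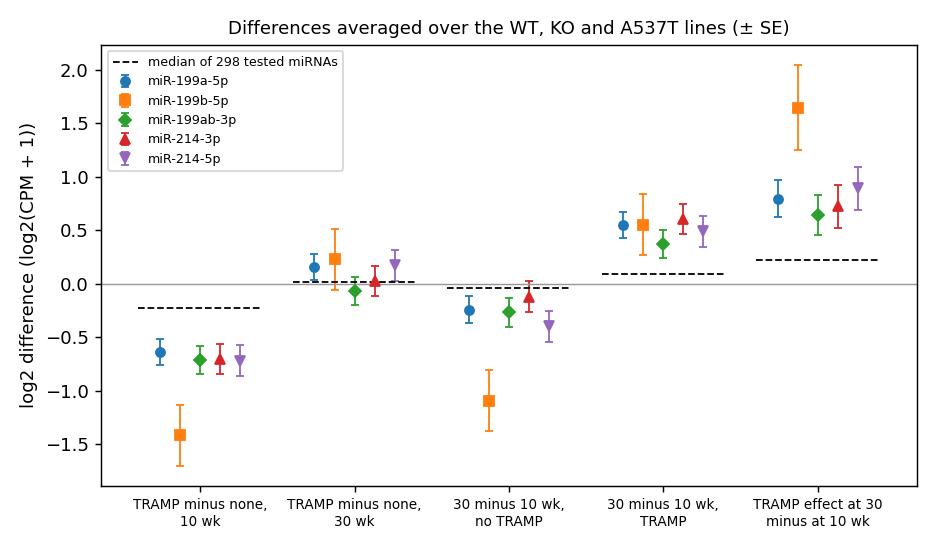
Log2 difference of each member (vertical axis, CPM + 1 scale, points with SE bars) in the 5 comparisons averaged over the lines, with the median of 298 miRNAs as a dashed line. All 5 points lie below 0 for TRAMP at 10 weeks and above 0 for the change of the TRAMP difference between the ages, and they straddle 0 for TRAMP at 30 weeks.

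The 3 lines were then taken apart at 10 weeks. In KO mice 5 of 5 members were called lower with TRAMP (background 32.6%), with differences from -0.82 for miR-199a-5p to -1.90 for miR-199b-5p. For all 5, every KO-TRAMP library lay below every KO library, as for 39.3% of all miRNAs. Without library 7, 3 members were called. In A537T mice 4 of 5 were called lower (background 24.8%), miR-199b-5p by -1.71, miR-199ab-3p by -0.92, miR-199a-5p by -0.78 and miR-214-3p by -0.76. miR-214-5p stood at -0.58 with a limma adjusted p of 0.063. The groups were separated, with TRAMP lower, for the same 4, as for 35.9% of all miRNAs. Without library 4 only 1 member was called, without library 36 it was 3, and without library 5 or 30 all 5 were.

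In WT mice 0 of 5 were called by limma (background 40.9%, 16.1% lower), with differences of -0.31 for miR-199a-5p, -0.65 for miR-199b-5p, -0.29 for miR-199ab-3p, -0.42 for miR-214-3p and -0.52 for miR-214-5p. The unadjusted p was under 0.05 for 1 of them, miR-214-5p, and for 140 of all 298 miRNAs, 54 of these lower. No member was separated in WT, against 19.1% of all miRNAs. This count rested on library 30 and on the scaling. Without library 30, 3 members were called. When skeletal muscle miRNAs were taken out of the library totals, 4 were called, and the differences of all 5 members, called or not, ran from -0.61 to -0.97. On the recovered reads edgeR called 2 and DESeq2 4.

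A call in one line and none in another does not show that the lines differ, so the difference itself was tested. The TRAMP difference of KO minus that of WT was -0.51 for miR-199a-5p, -1.25 for miR-199b-5p, -0.64 for miR-199ab-3p, -0.51 for miR-214-3p and -0.53 for miR-214-5p. For A537T minus WT it ran from -1.06 for miR-199b-5p to -0.06 for miR-214-5p. By limma 0 of 5 members were called in either comparison (background 0% in both), and edgeR and DESeq2 called 0 as well. The unadjusted p was under 0.05 for 0 members, and its lowest value was 0.057, for miR-199ab-3p in KO. A difference between lines was thus not detected with 3 libraries per group.

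**Figure D3:**
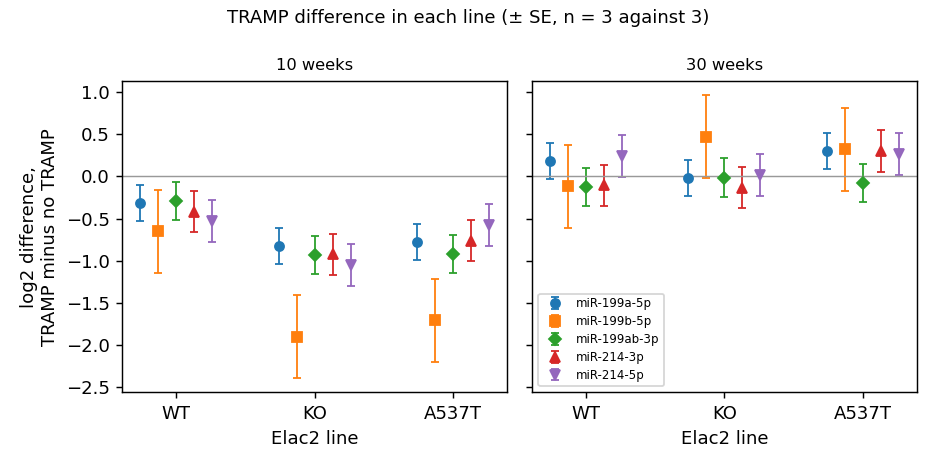
Log2 difference with TRAMP against without (vertical axis, CPM + 1 scale, SE bars) of each member in the WT, KO and A537T lines at 10 and 30 weeks. At 10 weeks every point lies below 0, with the KO and A537T points lower than the WT points, and at 30 weeks the points scatter around 0.

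At 30 weeks the members no longer differed detectably between TRAMP and other prostates. None of the 5 was called by limma over the 3 lines (background 46.3%), and 0 had an unadjusted p under 0.05. edgeR and DESeq2 on the recovered reads also called 0. The median of the members was 0.15, and that of all miRNAs 0.02.

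miR-199a-5p had 1313, 1503 and 1909 CPM in WT at 30 weeks and 1737, 1763 and 1783 CPM in WT-TRAMP. KO libraries held 1639, 1818 and 1865 CPM and KO-TRAMP libraries 1384, 1842 and 2084 CPM. A537T libraries held 2014, 2060.2 and 2228 CPM and A537T-TRAMP libraries 2493, 2577 and 2706 CPM. Only the A537T groups were separated, with TRAMP higher. The difference over the lines was 0.15, with a 95% interval from -0.10 to 0.41.

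miR-199b-5p was lower by group mean than at 10 weeks in the groups without TRAMP. Its levels with and without TRAMP overlapped in each line. It had 136, 252 and 373 CPM in WT, 118, 292 and 344 CPM in KO, and 234, 316 and 375 CPM in A537T. With TRAMP it had 185, 225 and 242 CPM in WT-TRAMP, 265, 342 and 352 CPM in KO-TRAMP, and 307, 336 and 529 CPM in A537T-TRAMP. The difference over the lines was 0.23, and its interval from -0.36 to 0.81 was the widest of the 5.

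miR-199ab-3p had 4212, 6261 and 6487 CPM in WT, 4918, 6556 and 6583 CPM in KO, and 6792, 7860.0 and 8647 CPM in A537T. It had 4961, 5041 and 5252 CPM in WT-TRAMP, 5674, 5763 and 6298 CPM in KO-TRAMP, and 6706, 7563 and 7721 CPM in A537T-TRAMP. The 3 lines overlapped between TRAMP and no TRAMP, and the difference over them was -0.07 with an interval from -0.34 to 0.20.

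miR-214-3p had 111, 125 and 146 CPM in WT, 116, 119 and 141 CPM in KO, and 121, 147 and 150.3 CPM in A537T. It had 116, 118 and 118 CPM in WT-TRAMP, 92.3, 115 and 139 CPM in KO-TRAMP, and 155, 164 and 198 CPM in A537T-TRAMP. The A537T-TRAMP libraries lay above all others of that age, and the difference over the lines was 0.02 with an interval from -0.27 to 0.31. miR-214-5p ranged from 60.7 to 104 CPM over the 18 libraries of 30 weeks, and its groups with and without TRAMP overlapped in all 3 lines. It had 62.0, 67.0 and 78.8 CPM in WT and 74.8, 77.8 and 92.6 CPM in WT-TRAMP, the pair with the least overlap. Its difference over the lines was 0.17, with an interval from -0.12 to 0.46.

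Line by line, 0 of 5 members were called at 30 weeks in WT (background 33.6%), in KO (36.2%) and in A537T (15.1%). By limma 0 of these 15 values had an unadjusted p under 0.05, and edgeR and DESeq2 called 0. miR-199a-5p and miR-214-3p were separated and higher in A537T-TRAMP, as were 20.1% of all miRNAs. In the test of KO minus WT 0 of 5 were called by limma, edgeR or DESeq2 (background 8.72%), as in that of A537T minus WT (0%), and 0 had an unadjusted p under 0.05.

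The change of the TRAMP difference between the ages was tested as an interaction. All 5 members were called higher (background 29.2%), that is, their TRAMP difference was less negative at 30 than at 10 weeks. It was 1.64 (SE 0.40, adjusted p = 0.0025) for miR-199b-5p, 0.89 (SE 0.20, adjusted p = 0.0016) for miR-214-5p and 0.79 (SE 0.17, adjusted p = 0.0011) for miR-199a-5p. It was 0.72 (SE 0.20, adjusted p = 0.0064) for miR-214-3p and 0.64 (SE 0.19, adjusted p = 0.0084) for miR-199ab-3p. The median was 0.79 for the members and 0.22 for all miRNAs. This comparison uses the libraries of the TRAMP comparisons above and of the age comparisons below, so they are not separate evidence.

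The ages were then compared without and with TRAMP. Without TRAMP the level of 2 of 5 members was called lower at 30 than at 10 weeks (background 20.5%). miR-199b-5p fell by 1.09 (SE 0.28, adjusted p = 0.0029) and miR-214-5p by 0.40 (adjusted p = 0.027). The other 3 stood at -0.24 for miR-199a-5p, -0.27 for miR-199ab-3p and -0.12 for miR-214-3p. The count was 1, with the call of miR-214-5p lost, without any 1 of libraries 19, 23, 27, 28, 29, 32 and 36. It was 4 without library 30, and 4 without libraries 7, 30 and 35. Of the marker lists in the same comparison, skeletal muscle had 6 of 6 called lower (median -3.53), red cells 2 of 2 and endothelium 1 of 2 lower, epithelium 8 of 11 higher (median 0.57), leukocytes 2 of 7 higher and the other stromal list 1 of 14 higher. Their part in the members' differences was not tested. Taking the skeletal muscle miRNAs out of the totals took the count to 4, but this only changes the scale of each library.

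With TRAMP 4 of 5 were called higher at 30 weeks (background 21.1%). miR-214-3p rose by 0.60 (adjusted p = 0.0025), miR-199a-5p by 0.55 (adjusted p = 0.0016), miR-214-5p by 0.49 (adjusted p = 0.016) and miR-199ab-3p by 0.37 (adjusted p = 0.034). The call of miR-199ab-3p was the least firm, and was lost without any 1 of libraries 2, 3, 4, 5, 7, 10, 12, 14, 15, 17 and 18. It was also lost by edgeR (adjusted p = 0.058), with no filter (adjusted p = 0.076) and without libraries 7, 30 and 35 (adjusted p = 0.074), each of which left 3 members called. miR-199b-5p had a difference of 0.55 with an adjusted p of 0.13. Its levels with TRAMP were 90.6 to 343 CPM at 10 weeks and 185 to 529 CPM at 30 weeks. With TRAMP, leukocyte miRNAs were called higher with age in 6 of 7 (median 1.02), skeletal muscle lower in 3 of 6 and higher in 1, epithelium lower in 1 of 11 and higher in 1, and the other stromal list higher in 1 of 14. Their part in the members' rise was not tested.

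Within single lines the age differences were called less often. In KO mice 1 member was called lower (background 12.8%), miR-199b-5p at -1.62 with a limma adjusted p of 0.023, and this call was lost without library 23, 31 or 32, while 2 members were called without libraries 7, 30 and 35. All 5 members were separated and lower at 30 weeks in KO, as were 41.9% of all miRNAs. In A537T-TRAMP mice 3 were called higher (background 8.39%), miR-214-3p at 0.96, miR-199a-5p at 0.93 and miR-199ab-3p at 0.73. Without library 4 this count was 0 and without library 14 it was 1, and leaving out any 1 of libraries 2, 5, 10, 11, 12, 13, 15, 18, 25, 31, 32, 33 and 35 took it to 2. In WT (background 13.1%), A537T (18.1%), WT-TRAMP (8.72%) and KO-TRAMP mice (18.1%) 0 of 5 were called by limma, with an unadjusted p under 0.05 for 0, 1, 2 and 0 members. Of all 298 miRNAs, 88, 93, 70 and 102 had an unadjusted p under 0.05 there. edgeR called 0 in these 4, and DESeq2 called 1 in A537T and 2 in WT-TRAMP.

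The Elac2 lines were compared with their controls at each age, with and without TRAMP. Over 8 comparisons and 40 tests 0 members were called by limma, while DESeq2 called 2 and edgeR 0. The unadjusted p was under 0.05 in 9 of the 40. Of these, 4 were in KO against WT at 10 weeks, as for 74 of 298 miRNAs. Another 3 were in A537T-TRAMP against WT-TRAMP at 30 weeks, as for 22 of 298 miRNAs. Of all miRNAs, KO against WT called 5.7% at 10 weeks and 1.01% at 30 weeks, and KO-TRAMP against WT-TRAMP 0% and 4.03%. The 4 comparisons of A537T or A537T-TRAMP with their controls called 0%. KO and A537T share the WT libraries, so their values are set side by side and not counted together.

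At 10 weeks miR-214-3p had the smallest p of the members in KO against WT, with a difference of 0.63 (adjusted p = 0.12). The WT libraries at 69.2, 119 and 163 CPM reached into the KO range of 162 to 183 CPM through library 28 alone. Without library 28 the difference was 0.91, the adjusted p was 0.011 and 4 members were called. Without library 30, the lowest WT library, the difference was 0.30 and no member was called. In A537T against WT miR-199a-5p stood at 0.47 (adjusted p = 0.72). At 30 weeks miR-199ab-3p stood at 0.48 in A537T against WT (adjusted p = 0.39), and DESeq2 gave 0.56 with an adjusted p of 0.021. In KO against WT miR-199a-5p stood at 0.19.

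With TRAMP, 0 members were called in any comparison of a mutant line with WT-TRAMP. In A537T-TRAMP at 30 weeks miR-199a-5p was 0.56 higher than in WT-TRAMP, with a limma adjusted p of 0.64. There 4 of 5 members were separated and higher, as were 17.1% of all miRNAs. In KO-TRAMP of that age miR-199b-5p stood at 0.55. It and miR-199ab-3p were separated and higher there, and the share over all miRNAs is not given for this pair. At 10 weeks miR-199ab-3p stood at -0.15 in KO-TRAMP and miR-214-5p at 0.23 in A537T-TRAMP. The sign of the KO-TRAMP value depended on the scaling.

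Ratios between members do not depend on the library total, so they show whether the arms and genes moved by equal amounts. They were compared by a two-sided exact permutation test within lines over 18 libraries (8000 arrangements), with p adjusted over 16 tests, of which 4 fell under 0.05. miR-199a-5p over miR-199b-5p was 6.96 in TRAMP and 4.22 in other prostates at 10 weeks, by group means (p = 0.006, adjusted p = 0.027, higher in 3 of 3 lines). It was 7.49 at 30 weeks without TRAMP against 4.22 at 10 weeks (exact p = 0.0055, adjusted p = 0.027, 3 of 3 lines). miR-199b-5p thus fell by more than miR-199a-5p in both comparisons, which share the 10-week libraries without TRAMP. Without library 28 or 29 both calls were lost, and the age call also without library 19.

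miR-214-3p over miR-214-5p, the 2 arms of 1 hairpin, was 1.82 at 30 weeks and 1.50 at 10 weeks without TRAMP (p = 0.00175, adjusted p = 0.027 by the exact permutation test, 3 of 3 lines). It stayed called whichever library was left out. The 3′ arm of miR-199 over the sum of its 5′ arms was 2.64 in TRAMP and 3.10 in other prostates at 30 weeks (p = 0.00675, adjusted p = 0.027 by the same exact test, lower in 3 of 3 lines). This call was lost without any 1 of libraries 16, 18, 22 and 24. It was also lost without library 28 or 29, which are of 10 weeks and not in the comparison. There the exact p stayed at 0.00675, and only its adjustment over 16 tests moved, to 0.054. miR-214-3p over miR-199a-5p, which is also made from Mir199a-1, stayed between 0.053 and 0.084 over 36 libraries and was called in 0 of 4 comparisons, of which 1 had an unadjusted exact p under 0.05. That 1, TRAMP at 30 weeks, was called without library 14 or 27. The ratio of the miR-214 arms with TRAMP at 30 weeks was called without library 13, and that of the miR-199 arms by age with TRAMP without library 8 or 17.

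**Figure D4:**
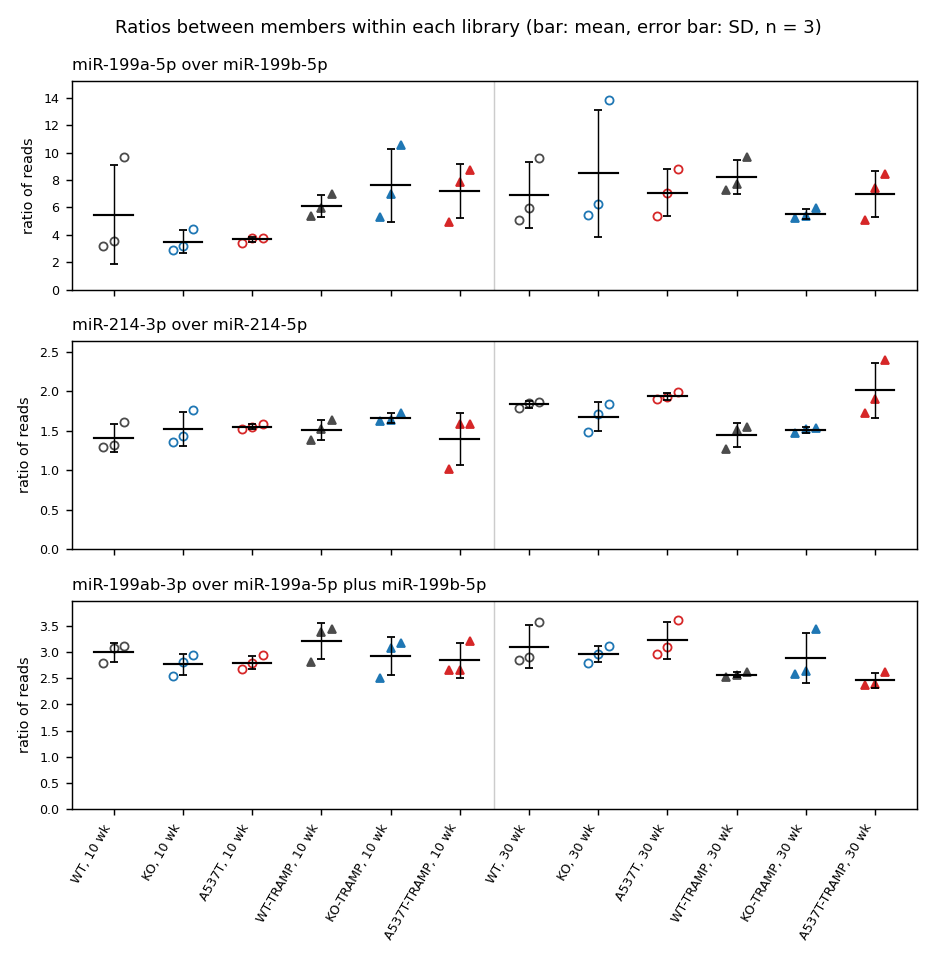
Ratios of members (1 panel each, vertical axis a ratio of CPM without unit) in the 36 libraries by group, with points for libraries, bars for group means and error bars for the SD. The ratio of miR-199a-5p to miR-199b-5p is lowest in KO and A537T mice at 10 weeks, where it lies between 2.91 and 4.43.

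The members moved together across libraries. Pearson's r of log2 CPM + 1 between pairs of members was 0.80 to 0.94 over 36 libraries, and 0.80 to 0.90 for deviations from the group means. The highest was miR-199a-5p with miR-214-3p. In 6 of 12 groups 1 library was lowest for all 5 members, and in 11 of 12 for at least 4. These points share library totals, and members share hairpins and, for chromosome 1, a transcript, so the correlations are a description.

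Of the other 293 miRNAs, those most like the members by mean r over the 5 were miR-674-5p (0.80), miR-362-3p (0.78), miR-500-3p (0.76), miR-125b-2-3p (0.75) and miR-350-3p (0.75). At 10 weeks their differences with TRAMP were -0.74, -0.84, -1.60, -0.39 and -1.17. The correlation over 36 libraries that picked them includes the differences between groups, so these values are no separate evidence. For deviations from the group means miR-125b-2-3p came first (0.83), followed by miR-125b-1-3p (0.79), miR-154-5p, miR-23a-3p and miR-196b-5p (0.78 each). The differences of this set with TRAMP at 10 weeks were -0.39, -0.58, -1.52, -0.41 and -0.16. miR-125b-2-3p was the only miRNA in both sets.

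Other markers moved with TRAMP at 10 weeks beside the members. Of 14 other stromal and smooth muscle miRNAs, 8 were called lower and 2 higher, with a median of -0.44. miR-145a-5p and miR-143-3p, which mark smooth muscle, stood at -1.43 and -0.95, and miR-195a-5p and miR-497a-5p, which share a cluster, at 0.94 and 1.15. Of 11 epithelial miRNAs 9 were called higher and 1 lower, with a median of 0.49 against -0.23 for all 298 miRNAs. The summed epithelial share was 4.46% to 7.76% without and 7.21% to 10.5% with TRAMP, of totals that include skeletal muscle miRNAs. The endothelial miRNAs, 2 of 2, and those of red cells, 2 of 2, were called lower. The endothelial share was 1.24% to 1.86% without and 0.493% to 1.11% with TRAMP. Leukocyte miRNAs were called lower in 3 of 7 and higher in 3 of 7, and nerve miRNAs higher in 1 of 2.

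All 6 skeletal muscle miRNAs tested were called lower, with a median of -3.64. The share of all 7 listed skeletal muscle miRNAs was 0.736% to 30.7% without and 0.218% to 3.09% with TRAMP. miR-208b-3p was at 0 in 21 of 36 libraries and miR-499-5p in 1, and no other listed marker was at 0 in any. With the skeletal muscle miRNAs taken out of the totals, all 5 members were still called lower, but this only changes the scale of each library. It moved the median of all miRNAs tested from -0.23 to -0.38, because the share taken out was mostly larger without TRAMP. The rescaling thus made the TRAMP differences more negative by construction, and the kept calls do not test a part of skeletal muscle tissue. The part of skeletal muscle and of the other lists in the members' differences was not tested.

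For the change of the TRAMP difference between the ages, where all 5 members were called higher, the other stromal list had 1 of 14 called higher and 0 lower. Skeletal muscle had 6 of 6 higher, leukocytes 4 of 7 higher, endothelium 1 of 2 higher (median 0.87), red cells 1 of 2 higher (median 1.24), and epithelium 6 of 11 lower. The stromal list of 14 thus held fewer called miRNAs than the 5 members, a comparison of counts with no test between the lists.

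**Figure D5:**
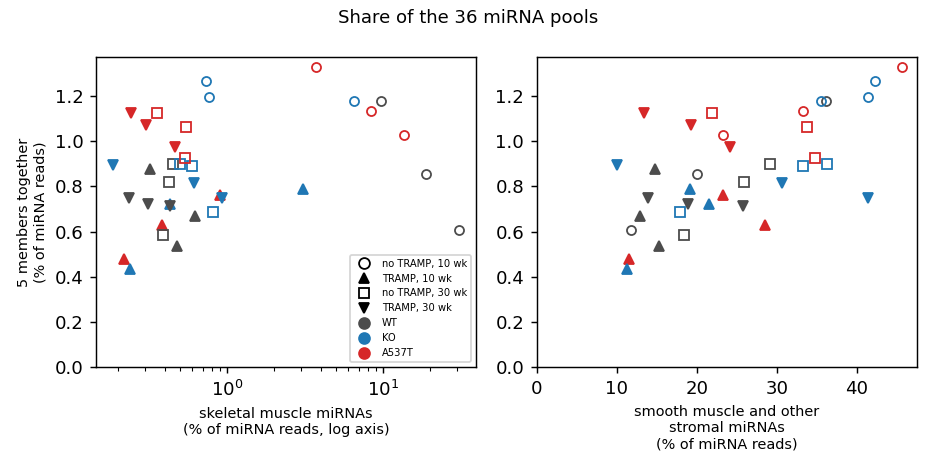
Share of miRNA reads held by the 5 members together (vertical axis, percent) against the share held by skeletal muscle miRNAs (left, percent, log axis) and by other stromal and smooth muscle miRNAs (right, percent) in the 36 libraries, with colour for the line and symbol for age and TRAMP. The members' share is 0.434% to 1.33%, and the skeletal muscle share passes 3.09% only in 10-week libraries without TRAMP, reaching 30.7% in a WT library.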

How the data were processed

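The deposited tables, 8 in all, hold normalised counts per miRNA, a signal scale made by the authors by dividing reads by DESeq2 size factors. Per the study's methods, paired reads were merged with BBMerge and mapped and counted with mirDeep2 on GRCm38 and miRBase, and entries of identical sequence were summed. Libraries were made with the TruSeq Small RNA kit. Whole reads were recovered for 100% of values (within 0.001 read), and the 12 control columns shared by tables were identical.

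Each column was divided by its sum to give CPM. Tests used limma 3.58.1 in R 4.3.3 on log2(CPM + 1) with a variance trend, for 298 miRNAs with a mean of at least 10 CPM, in 1 model of 12 groups (24 residual degrees of freedom, 29 comparisons, two-sided). edgeR 4.0.16 and DESeq2 1.42.0 on recovered reads, other scalings, filters and left-out libraries were alternatives. Scripts were tested on simulated data. The members, the named miRNAs (per comparison of a mutant with its control, the member with the smallest p, and the 5 miRNAs most like the members by mean correlation) and the marker lists were chosen with earlier results of these data known. Library totals of 655455 to 21870210 reads set the counting precision. Columns carry library numbers and no replicate numbers. Any size factor of the authors does not change a comparison of 1 member in CPM between libraries. The ligation bias of the member itself cancels there, while that of other miRNAs enters the library totals and was not tested.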

Additional observations from a re-analysis of the deposited data

Results flagged for a closer look

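The TRAMP difference of all 5 members changed between 10 and 30 weeks by the test of the change itself, on the log2 scale. The difference at 30 weeks minus that at 10 weeks was 0.79 for miR-199a-5p, 1.64 for miR-199b-5p, 0.64 for miR-199ab-3p, 0.72 for miR-214-3p and 0.89 for miR-214-5p, with limma adjusted p of 0.0011, 0.0025, 0.0084, 0.0064 and 0.0016. The median of all 298 miRNAs was 0.22, and all 5 members kept their call when any 1 library was left out. The same change was called for 6 of 6 skeletal muscle miRNAs, and the cause was not tested.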

How the results depend on the processing

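The count of 5 members called lower with TRAMP at 10 weeks and of 5 called in the change between ages held under every alternative, except that miR-214-5p had no value, and the count was 4, with a minimum of 100 CPM. At 30 weeks 0 were called under every alternative, as in the differences between lines. Another scaling moved the median of all miRNAs for TRAMP at 10 weeks from -0.23 to -0.13 (TMM), -0.10 (median of ratios) or -0.38 (without skeletal muscle miRNAs). The age count without TRAMP (2) was 1 with no filter, 1 with a minimum of 100 CPM, 4 without skeletal muscle miRNAs, 4 without libraries 7, 30 and 35 (chosen after their values were seen), and 1 to 4 with 1 library left out. The age count with TRAMP (4) was 3 by edgeR, with no filter, with a minimum of 100 CPM and without libraries 7, 30 and 35. The TRAMP count over lines and ages (9) was 14 without skeletal muscle miRNAs and 6 to 13 with 1 library left out. The age count over lines (4) was 1 with no filter, 7 by DESeq2 and 1 to 4 with 1 library left out. The mutant count (0) was 1 with median-of-ratios scaling, 2 by DESeq2 and 0 to 4 with 1 library left out. miR-214-3p with TRAMP at 30 weeks (0.02) was -0.060 by median of ratios and -0.057 by DESeq2, and -0.028 to 0.070 with 1 library left out. miR-199ab-3p in KO-TRAMP against WT-TRAMP at 10 weeks (-0.15) was 0.029 by median of ratios, 0.0031 by edgeR, 0.033 by DESeq2, 0.10 without libraries 7, 30 and 35, 0.054 in its table alone, and -0.35 to 0.10 with 1 library left out. Of 1520 alternative values of log2 differences, 1476 kept direction and side of the threshold, 22 lost a call, 9 gained one and 13 changed sign. With 1 library left out, the log2 ratio differences ran from 0.69 to 0.95 (miR-199a-5p over miR-199b-5p, TRAMP at 10 weeks), -0.16 to 0.065 (TRAMP at 30 weeks), 0.71 to 1.02 (age without TRAMP) and -0.087 to 0.083 (age with TRAMP). They ran from -0.015 to 0.093 (miR-214 arms, TRAMP at 10 weeks), -0.20 to -0.12 (TRAMP at 30 weeks), -0.28 to -0.20 (miR-199 arms, TRAMP at 30 weeks), -0.22 to -0.15 (age with TRAMP) and -0.16 to -0.11 (miR-214-3p over miR-199a-5p, TRAMP at 30 weeks). The causes were not tested beyond the construction of each alternative. No paired analysis was possible because the columns carry no replicate numbers.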
